A study of Canis lupus familiaris with 6 samples.

Results

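The genes described here belong to the p53 response and to the cyclin-dependent kinase (CDK) inhibitors: MDM2, MDM4, CDKN1A, CDKN1B, CDKN1C, CDKN2C, CCNG1, GADD45A and SESN1. They were chosen by symbol, taking every probe set whose only gene symbol in the array annotation was 1 of these 9, with values of the same lines in view: CDKN1A had been seen to divide the lines across the tumorigenicity groups, and MDM2 to be lower in the tumorigenic group. Of the 9 genes, 7 had such a probe set, 18 probe sets in all, out of 15115 genes with a probe set of 1 symbol; CDKN1C and GADD45A were not analysed here. The members' differences between the groups are therefore given as a description; their calls in the fit across all probe sets are counted once and support nothing.

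Expression was measured once in each of 6 primary cell lines of canine osteosarcoma, a malignant tumour of bone, with 1 Affymetrix array per line. The tumorigenic group (n = 3) holds UWKOS1, UWKOS3 and UWKOS7, whose cells gave rise to tumours in mice, and the non-tumorigenic group (n = 3) holds UWKOS2, UWKOS6 and UWKOS8, whose cells did not. All 6 were handled alike in the same medium with 10% serum, and the RNA came from the cultures, not from the transplants; no normal cells were arrayed. Values are log2 signals, so a difference of 1 doubles the signal, and all differences are tumorigenic minus non-tumorigenic.

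The transcription factor p53 is activated by DNA damage and other stress and switches on genes that halt the cell cycle, repair DNA or kill the cell. MDM2 is an E3 ubiquitin ligase that marks p53 for degradation and is itself a p53 target, which closes a feedback loop; its relative MDM4 binds p53 and restrains its activity. CDKN1A (p21) is the target through which p53 most directly stops the cycle: together with CDKN1B (p27) it belongs to the CIP/KIP inhibitors, which bind cyclin-CDK complexes. CDKN2C (p18) belongs to the INK4 inhibitors of CDK4 and CDK6. CCNG1 (cyclin G1) and SESN1 (sestrin 1, a regulator of the response to oxidative stress and nutrients) are further p53 targets. Loss of p53 function is common in osteosarcoma of dogs and people.

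CDKN1A was the member that varied most between lines. On its brightest probe set it measured 12.36 in UWKOS1, 8.28 in UWKOS3 and 8.77 in UWKOS7, and 9.06 in UWKOS2, 13.29 in UWKOS6 and 13.12 in UWKOS8. A tumorigenic line and a pair of non-tumorigenic lines were thus high, and the other 3 lines were low. The lowest of the high lines lay 3.31 above the highest of the low lines, a 9.89-fold gap, while the high lines spanned 0.93 and the low lines 0.78. The groups overlapped: the tumorigenic mean was 9.80 ± 2.23 (SD, n = 3) and the non-tumorigenic mean 11.82 ± 2.40 (SD, n = 3). They differed by -2.02 with a standard error (SE) of 1.49. The size depended on single lines: it was -3.40 without UWKOS2, -3.30 without UWKOS1, -1.28 without UWKOS6 and -1.26 without UWKOS3. With the mean of the gene's probe sets it was -1.15. Without UWKOS6 and UWKOS8 the difference was 0.75, which then rests on UWKOS2 against 3 lines.

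The other probe sets of CDKN1A divided the lines in the same way. The second measured 8.26 in UWKOS1, 5.35 in UWKOS3, 5.64 in UWKOS7, 5.37 in UWKOS2, 8.79 in UWKOS6 and 7.95 in UWKOS8. The third measured 7.53, 5.60 and 5.84 in the tumorigenic lines, in that order, and 5.60, 7.92 and 6.92 in the non-tumorigenic lines. The gap between the same 3 high and 3 low lines was 4.95-fold on the second and 2.11-fold on the third. On both of these the low lines lay below 6.07, the log2 value under which a probe set's mean over the arrays was held too dim to test, so their signal there is not known to exceed background.

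**Figure D1:**
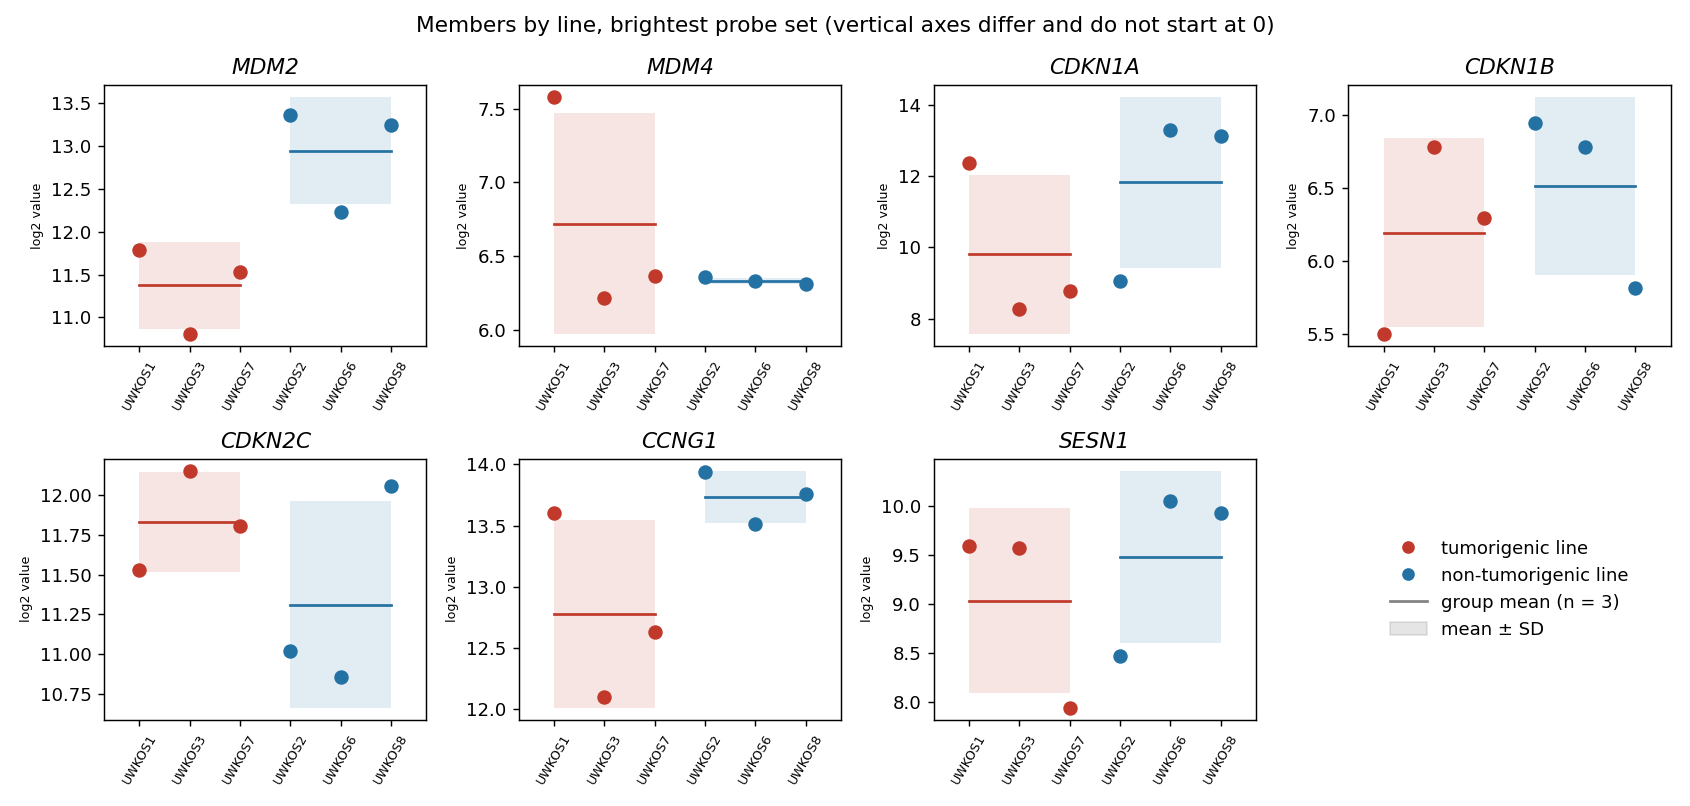
Log2 value of the brightest probe set of each of the 7 measured members (vertical axes) in the 6 lines (horizontal axes); points are lines, horizontal bars the group means and shaded bands mean ± SD over 3 lines. CDKN1A is high in UWKOS1, UWKOS6 and UWKOS8, MDM2 is lower in every tumorigenic line than in any non-tumorigenic line, and MDM4 stands apart in UWKOS1 alone.

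UWKOS6 and UWKOS8 also had the highest ratios in the control probe sets that compare the 3′ with the 5′ end of a transcript, a sign of RNA or labelling quality. The log2 ratio of the ends was 1.21 and 1.98 for GAPDH in these lines against 0.86 to 1.07 in the other 4, and 2.86 and 2.07 for actin against 0.64 to 1.11. UWKOS1, the remaining line with high CDKN1A, had the lowest ratio of all lines on both controls. On GAPDH, UWKOS6 lay close to UWKOS7, at 1.07, so the GAPDH end ratio mostly sets UWKOS8 apart. With the GAPDH end ratio as a covariate the CDKN1A difference between the groups was -0.94, against -2.02 without it. Array medians lay between 6.04 and 6.06.

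Collagens and SPARC of the bone matrix were bright in all lines (COL1A1 at least 12.28), and the summed level of the bone matrix list was 14.37 to 15.19 in the tumorigenic and 15.39 to 15.62 in the non-tumorigenic lines. SPP1 (osteopontin) measured 9.76 in UWKOS1 and 2.79 to 3.30 elsewhere, while RUNX2, the master factor of osteoblasts, lay between 5.84 and 6.52, and ALPL and IBSP lay under 6.07 in every line. Of 9 measured osteoblast and bone matrix markers 5 passed the filter on dim probe sets. For fibroblasts and stroma 6 of 7 passed and for smooth muscle 3 of 4. The counts were 3 of 8 for leukocytes, 2 of 5 for endothelium and 0 of 4 for epithelium. Of the last, EPCAM, KRT8 and KRT18 exceeded 6.07 in UWKOS1, and the keratins also in UWKOS3. The summed level of 4 smooth muscle markers was 9.75 to 14.49 in the tumorigenic lines and 15.34 to 15.40 in the others on the log2 scale. That of 7 fibroblast markers was 14.19 to 14.55 and 15.37 to 15.70. These 3 sums separated the groups, as MDM2 did, but not every marker in them: CNN1 was highest in UWKOS7, at 11.94, and the groups overlapped for PDGFRA, THY1, DCN and COL1A1 among others. The part of such cells in the MDM2 values was not tested, and a smaller share of such cells cannot be told apart from less RNA per cell. The endothelial sum also separated the groups but was higher in the tumorigenic lines, at 8.73 to 9.21 against 8.51 to 8.55.

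MDM2 was lower in every tumorigenic line than in any non-tumorigenic line on all 3 of its probe sets. The brightest measured 11.79 in UWKOS1, 10.81 in UWKOS3 and 11.53 in UWKOS7, against 13.37 in UWKOS2, 12.23 in UWKOS6 and 13.25 in UWKOS8. The means were 11.38 ± 0.51 (SD, n = 3) and 12.95 ± 0.63 (SD, n = 3), a difference of -1.57 (SE 0.39). The other probe sets differed by -1.25 (SE 0.31) and -1.67 (SE 0.47). Within the non-tumorigenic group UWKOS2 and UWKOS8 were highest and UWKOS6 lay 1.02 below them, closer to UWKOS1, from which it differed by less than the SD of either group. Without UWKOS6 and UWKOS8 the difference was -1.99, which again rests on UWKOS2 against 3 lines.

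The order of the lines in MDM2 was not that in CDKN1A. UWKOS2 had the highest MDM2 value and lay among the low lines for CDKN1A. UWKOS1 and UWKOS6 were high in CDKN1A and lay next to each other in the middle of the range of MDM2. UWKOS8 was high in both and UWKOS3 was the lowest line in both.

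MDM4 was uniform apart from 1 line. It measured 7.58 in UWKOS1, 6.21 in UWKOS3 and 6.36 in UWKOS7, and 6.36, 6.33 and 6.31 in UWKOS2, UWKOS6 and UWKOS8. UWKOS1 lay 2.32-fold above the next line, while the other 5 spanned 0.15. The difference between the groups was 0.39 (SE 0.37); it turned to -0.04 without UWKOS1 and was 0.64 without UWKOS3. It has 1 probe set, and the 5 lower lines lay just above the filter value of 6.07.

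Cyclin G1 followed the order of MDM2 more closely than CDKN1A did. Its brightest probe set measured 13.61 in UWKOS1, 12.10 in UWKOS3 and 12.63 in UWKOS7, against 13.94 in UWKOS2, 13.51 in UWKOS6 and 13.76 in UWKOS8. UWKOS3 and UWKOS7 were low, and UWKOS1 lay within the range of the non-tumorigenic lines. The difference was -0.96 (SE 0.39); it was -1.37 without UWKOS1 and -0.62 without UWKOS3. The second probe set gave the same low lines, with 10.44 in UWKOS3 and 10.76 in UWKOS7, and a difference of -0.72 (SE 0.57). The third was too dim to test, at 3.42 to 4.47 in the tumorigenic and 5.12 to 5.78 in the non-tumorigenic lines.

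SESN1 had a pair of low lines, 1 from each group. Its brightest probe set measured 9.58 in UWKOS1, 9.56 in UWKOS3 and 7.94 in UWKOS7, and 8.47 in UWKOS2, 10.05 in UWKOS6 and 9.92 in UWKOS8. UWKOS7 and UWKOS2 lay at least 1.10 below the rest, a gap of 2.14-fold, and the groups overlapped. The next 2 probe sets put the same lines lowest, with gaps of 1.92-fold. The difference of -0.45 (SE 0.60) was smaller than its error; over the lines left out it ran from -0.95 without UWKOS2 to 0.10, reversed, without UWKOS7. A further 2 probe sets were too dim to test.

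**Figure D2:**
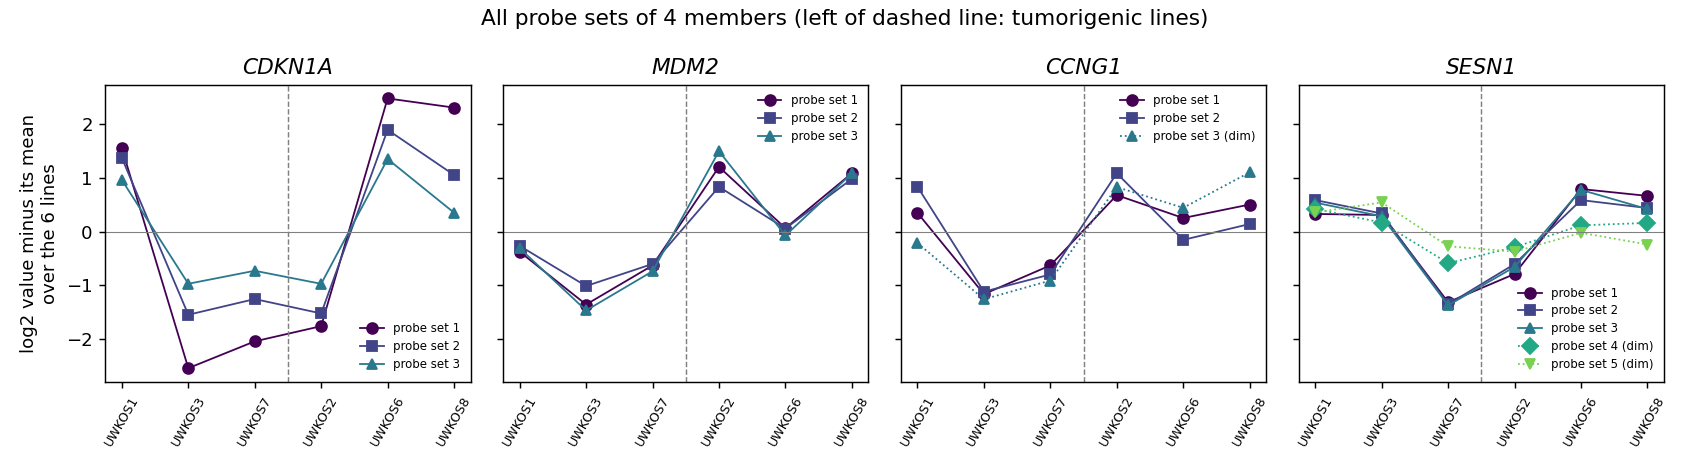
Each probe set of CDKN1A, MDM2, CCNG1 and SESN1, as its log2 value minus its own mean over the 6 lines (vertical axis, shared) against line (horizontal axis); dotted curves are probe sets too dim to test. The probe sets of CDKN1A, of MDM2 and of SESN1 that were tested follow one course over the lines, with a smaller span on the dimmer CDKN1A probe sets.

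The remaining CDK inhibitors varied less. CDKN1B measured 5.50 in UWKOS1, 6.78 in UWKOS3 and 6.30 in UWKOS7, and 6.95, 6.78 and 5.82 in UWKOS2, UWKOS6 and UWKOS8. UWKOS1 and UWKOS8, both high in CDKN1A, were the lowest, but UWKOS6, also high in CDKN1A, was among the highest, and the lines lay on both sides of the filter value. The difference of -0.32 (SE 0.43) was 0.03 without UWKOS1 and -0.67 without UWKOS8. CDKN2C measured 11.53, 12.15 and 11.81 in UWKOS1, UWKOS3 and UWKOS7, against 11.02, 10.86 and 12.05 in UWKOS2, UWKOS6 and UWKOS8. UWKOS8 lay within the tumorigenic range, and the difference was 0.52 (SE 0.35). It was 0.29 without UWKOS6, 0.89 without UWKOS8 and 0.997 with the GAPDH end ratio as a covariate. The second CDKN2C probe set, also with UWKOS8 inside the tumorigenic range, differed by 0.80 (SE 0.34).

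Of the 15 tested member probe sets 1, of MDM2, passed the fit across all probe sets (limma with Benjamini-Hochberg adjustment at 0.05), where 12.0% of 21462 passed in either direction and 4.74% as lower in the tumorigenic lines. The groups did not overlap on 3 of the 15, all of MDM2, where 38.2% of all tested probe sets did not overlap, 21.3% as higher and 16.9% as lower. Since this contrast was known when the genes were chosen, nothing is read from these counts. The MDM2 call was absent with the GAPDH end ratio as a covariate, without any single line and without UWKOS6 and UWKOS8 together; 2 of its probe sets passed after quantile normalization. Without the filter on dim probe sets, and separately without UWKOS1, the lone member call was a CCNG1 probe set instead.

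Among genes listed as direct p53 targets, the members left out, 1 differed between the groups, and most did not follow CDKN1A over the lines. Of 50 listed genes other than the members 41 had a probe set and 30 were tested at 1 probe set per gene, the brightest. Of these 30, 0 rose, 1 fell and 29 missed the threshold. Their median difference was 0.03; over all 9145 genes tested 12.1% passed, 7.50% as higher and 4.63% as lower, with a median of 0.03. The groups did not overlap for 1 target as higher and 4 as lower, where 38.4% of all genes did not, 21.7% as higher and 16.6% as lower. The 1 that was higher is TSPAN8, whose limits are given below. The gene that fell was THBS1, a matrix glycoprotein that restrains vessel growth. It measured 12.15, 11.92 and 13.49 in UWKOS1, UWKOS3 and UWKOS7 and 14.58, 14.26 and 14.39 in UWKOS2, UWKOS6 and UWKOS8, so the groups did not overlap. The difference was -1.89 (SE 0.41, limma adjusted p = 0.0381), and of the fits without 1 line the call held only without UWKOS7. It was also lost without the filter and with the GAPDH end ratio as a covariate. TSPAN8, a tetraspanin whose place among p53 targets is doubtful, measured 12.64, 11.81 and 6.77 in the tumorigenic and 4.88, 4.56 and 4.77 in the non-tumorigenic lines, in that order. It passed the filter only through the tumorigenic lines and is not known to exceed background in the others, so no size is given for its difference. It was not among the calls and was picked for mention after its values had been seen.

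As a measure of likeness, Pearson's r with CDKN1A over the 6 lines had a median of -0.25 in these 30 genes, with 11 above 0 (36.7%), against a median of -0.08 and 45.4% above 0 over all genes tested. Because CDKN1A divides the lines in 3 and 3, such an r mostly states how far a gene was high in the same 3 lines, and it is given without a p. Of the members that are p53 targets, SESN1 had an r of 0.73 with CDKN1A, CCNG1 0.63 and MDM2 0.40. The highest among the 30 was 0.68, for TP53I11, followed by cyclin G2 (CCNG2, 0.53), the anti-proliferative factor BTG2 (0.52) and the KIT ligand KITLG (0.48). CCNG2 measured 8.65, 5.67 and 7.52 in UWKOS1, UWKOS3 and UWKOS7 and 8.50, 8.04 and 7.82 in UWKOS2, UWKOS6 and UWKOS8. It was lowest in UWKOS3, as CDKN1A was, but was nearly as high in UWKOS2, a line low in CDKN1A, as in UWKOS1.

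PLK2, a polo-like kinase induced by p53, was low in a pair of the lines that were high in CDKN1A. It measured 8.66, 8.77 and 9.96 in UWKOS1, UWKOS3 and UWKOS7 and 8.93, 6.33 and 6.57 in UWKOS2, UWKOS6 and UWKOS8. UWKOS6 and UWKOS8 were low, while UWKOS1, also high in CDKN1A, lay close to UWKOS3. Its r of -0.83 lay between those of CYFIP2 (-0.89), a regulator of actin that spanned 0.58 over the lines, and of the mitochondrial reductase FDXR (-0.75) and the translesion polymerase POLH (-0.72). The classic pro-apoptotic target BAX measured 9.49, 8.53 and 8.49 in the tumorigenic lines and 9.73, 8.59 and 8.46 in the others, in the same order; it was highest in UWKOS2 and UWKOS1 and alike in the other 4. BAX was picked for mention after its values had been seen.

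**Figure D3:**
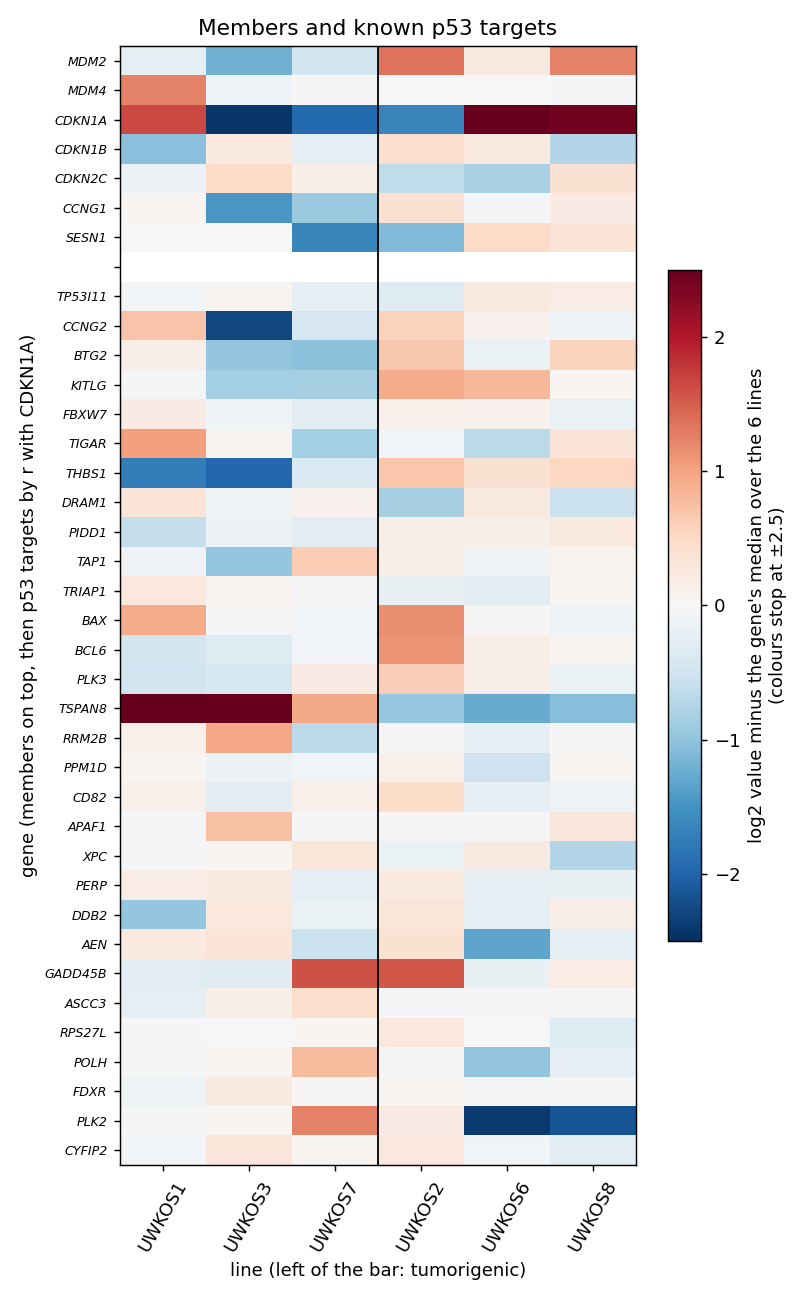
Log2 value minus the gene's median over the 6 lines (colour, red above and blue below) for the 7 measured members (top block) and the 30 tested p53 target genes, ordered by their r with CDKN1A; columns are lines. No block of targets repeats the 3 high and 3 low lines of CDKN1A, and of the 30 targets only THBS1 passed the test between groups.

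Among regulators of p53 and of the CDK inhibitors, 5 of 25 tested genes rose, 1 fell and 19 missed the threshold, where 7.50% of all genes rose and 4.63% fell. Their median difference was 0.30, against 0.03 over all genes. The checkpoint kinase CHEK1, which phosphorylates p53, rose by 1.88 (SE 0.24, limma adjusted p = 0.0153), with 8.83, 9.41 and 9.37 in UWKOS1, UWKOS3 and UWKOS7 against 7.34, 7.02 and 7.60 in UWKOS2, UWKOS6 and UWKOS8. CDKN3, a phosphatase that acts on CDK2, rose by 1.58 (SE 0.19), the nucleolar chaperone NPM1 by 1.28 (SE 0.21), MYC, which can repress CDKN1A, by 1.32 (SE 0.23) and the acetyltransferase KAT5 by 0.68 (SE 0.15). KLF4, a factor that can activate CDKN1A, fell by 1.61 (SE 0.30). MYC measured 10.80, 11.06 and 11.17 in the tumorigenic and 10.03, 9.75 and 9.29 in the non-tumorigenic lines, in the same order. KLF4 measured 9.77, 9.89 and 10.82 against 11.61, 11.71 and 11.98. It was thus lowest in UWKOS1, a line high in CDKN1A. Over the lines r with CDKN1A was -0.68 for MYC and 0.38 for KLF4. The part of either gene in the CDKN1A values was not tested. Of 15 alternatives CHEK1 and CDKN3 passed in 12 each, NPM1 and MYC in 10 each, KLF4 in 8 and KAT5 in 5. KAT5 missed the threshold with quantile normalization (limma adjusted p = 0.0514), centring on the 75th percentile (0.0542) and an intensity trend (0.0541). The INK4 inhibitor CDKN2D measured 10.61, 8.86 and 10.10 in the tumorigenic and 10.07, 9.09 and 10.43 in the non-tumorigenic lines, in the order used above, so that its groups overlapped widely; the difference was -0.01 (SE 0.53). Without UWKOS6, 0 of the 25 passed, without UWKOS3 2, without UWKOS2 or UWKOS8 3 each, and without UWKOS7 10. With the GAPDH end ratio as a covariate 0 passed.

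Genes repressed by the DREAM complex or driven by E2F, which lie downstream of p21 and the other CDK inhibitors, were higher on average in the tumorigenic lines. Of 37 tested, 17 rose, 0 fell and 20 missed the threshold, where 7.50% of all genes rose. Their median difference was 1.38, against 0.03 over all genes. For 26 the lowest tumorigenic value exceeded the highest non-tumorigenic one, as it did for 21.7% of all genes. Cyclin E1 (CCNE1), a partner of CDK2, rose by 1.75 (SE 0.27), BIRC5 by 1.45 (SE 0.20), the replication factors MCM3 by 2.11 (SE 0.30) and CDC6 by 2.15 (SE 0.34), and the mitotic kinase AURKA by 2.16 (SE 0.35). The CDK-activating phosphatase CDC25A, also among the 17 and the 26, measured 6.82 to 7.19 in the tumorigenic lines but 4.91 to 5.74 in the others, under the filter value. It passed the filter only through the tumorigenic lines and is not known to exceed background in the others, so no size is given. These genes were named for the smallest p between the groups. Where UWKOS1 and UWKOS2 lay relative to the other group therefore follows largely from that choice, and nothing is read from it. UWKOS1, high in CDKN1A, lay above every non-tumorigenic line for CCNE1, BIRC5, MCM3, CDC6 and AURKA. It was the lowest tumorigenic line for CDC6, AURKA and CDC25A. CCNE1 measured 8.71 there, against 8.004 and 8.45 in UWKOS3 and UWKOS7, where CDKN1A was low. UWKOS2 had low CDKN1A and a CCNE1 value of 6.81, beside 6.23 and 6.88 in UWKOS6 and UWKOS8. Without UWKOS6 0 of the 37 passed, without UWKOS3 3, without UWKOS2 5 and without UWKOS1 8. With the GAPDH end ratio as a covariate 0 passed.

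Centring the arrays on the hybridization controls moved the median difference of all genes from 0.03 to 0.20 and the share of calls that were higher from 61.9% to 79.0%. Under it MDM2 differed by -1.40 and CDKN2C by 0.69, and no member's difference changed sign. Other settings moved these values the other way. Centred on the 75th percentile, the median difference of all genes was -0.04 and the share of higher calls 53.7%. With quantile normalization they were -0.006 and 57.4%.

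The genes whose course over the 6 lines was most like that of CDKN1A were sought among 3092 tested genes with an SD over the lines of at least 0.5, of which 18 had an r above 0.9. The 6 highest were ARV1, a lipid transporter (0.976), PARP9, an ADP-ribosyltransferase family member (0.973), CSGALNACT1, an enzyme of chondroitin sulphate synthesis (0.961), IDO1, which degrades tryptophan (0.953), SERPINE2, a protease inhibitor (0.946), and MAB21L2 (0.943). SERPINE2 measured 13.49, 10.45 and 10.06 in UWKOS1, UWKOS3 and UWKOS7 and 10.75, 12.73 and 13.83 in UWKOS2, UWKOS6 and UWKOS8. MAB21L2 was between 8.71 and 10.07 in the lines high in CDKN1A and between 4.46 and 4.59 in the others, under 6.07. It passed the filter only through the lines high in CDKN1A and is not known to exceed background in the others. ARV1 and PARP9 also lay under 6.07 in UWKOS2, UWKOS3 and UWKOS7, and IDO1 in UWKOS3 and UWKOS7. None of the 6 lies on the chromosome of CDKN1A.

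For MDM2, 54 of the same number of genes had an r above 0.9. The 6 highest were the phosphatase PPM1H (0.990), the sulphydryl oxidase QSOX1 (0.969), APLP1 (0.968), RANBP9 (0.967), SVIL (0.967) and the semaphorin SEMA4F (0.966). Of these, SVIL lay under 6.07 in the tumorigenic lines and is not known to exceed background there. PPM1H measured 8.42, 7.28 and 8.27 in UWKOS1, UWKOS3 and UWKOS7 and 9.64, 8.62 and 9.61 in UWKOS2, UWKOS6 and UWKOS8. It was the only one of these 6 on the chromosome of MDM2, 32 protein-coding genes away in the RefSeq order of the dog assembly UU_Cfam_GSD_1.0.

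Neighbours on the chromosome, looked at after the values had been seen, did not repeat the course of MDM2 as a block. Of the 4 nearest tested genes on each side, all 8 lay above their median over the lines in UWKOS8, 5 of them by more than 0.5: RAP1B by 1.04, FRS2 by 1.05, YEATS4 by 0.87, MDM1 by 0.69 and SLC35E3 by 0.69, beside 1.24 for MDM2. In UWKOS2, where MDM2 lay 1.36 above its median, 2 of the 8 were above theirs and 0 by more than 0.5. Around MDM4, 4 of the 8 neighbours were more than 0.5 above their median in UWKOS1: NUAK2 by 1.57, ZC3H11A by 1.08, SNRPE by 0.66 and MFSD4A by 0.57, beside 1.24 for MDM4. The nearest tested genes, PLEKHA6 and LRRN2, were 0.31 and 0.27 below theirs in that line, and no neighbour exceeded its median by more than 0.5 in the other 5 lines. Around CDKN1A the 8 neighbours had a median deviation of 0.05 in UWKOS1, -0.13 in UWKOS6 and -0.29 in UWKOS8, the lines where CDKN1A itself was 1.65, 2.58 and 2.41 above its median.

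**Figure D4:**
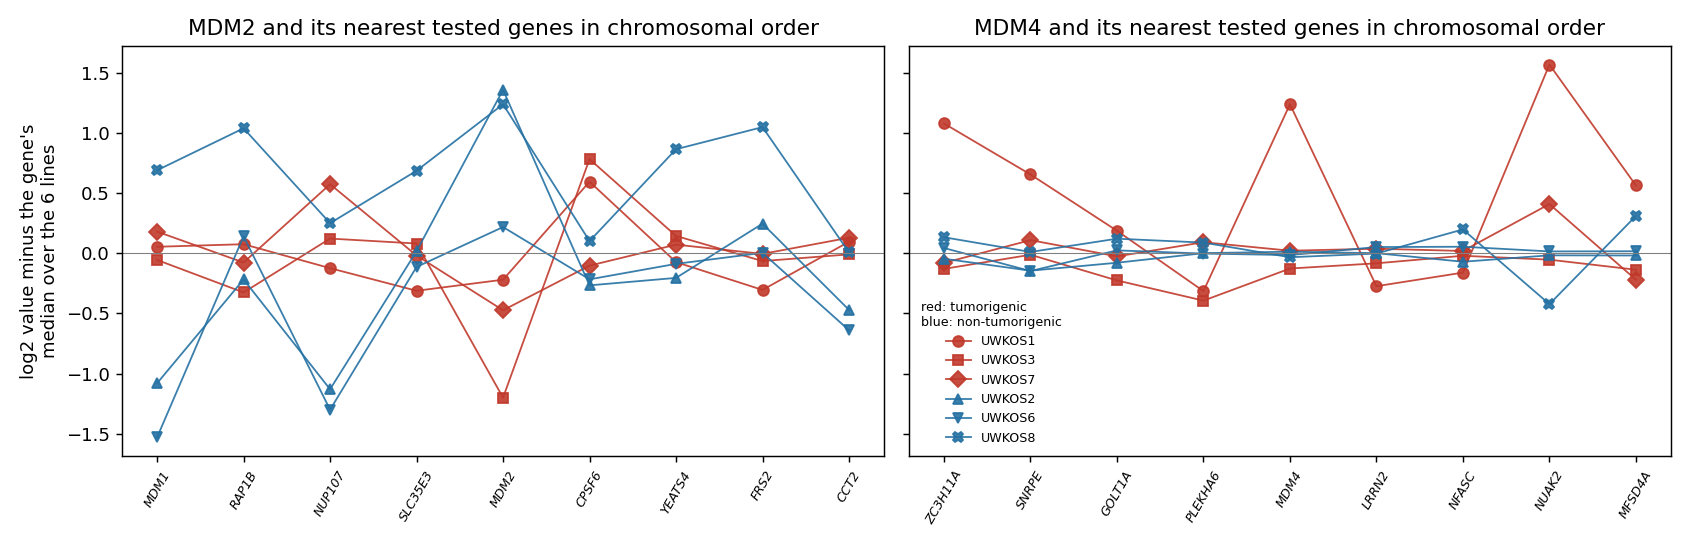
Log2 value minus the gene's median over the 6 lines (vertical axis) for MDM2 (left) and MDM4 (right) and the 4 nearest tested genes on each side, in chromosomal order and not to scale (horizontal axis); each curve is a line, red tumorigenic and blue non-tumorigenic. UWKOS8 lies above 0 at all 8 neighbours of MDM2, UWKOS2 peaks at MDM2 alone, and UWKOS1 is high at MDM4, NUAK2, ZC3H11A, SNRPE and MFSD4A. The median of NUAK2 lay under the filter value.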

How the data were processed

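The values were deposited on a log2 scale and were used as given; per the submitters' processing notes MAS5 was used, with no version, and further steps are not given in the sources used here. Of 43035 probe sets 111 were controls. Gene names came from GEO's annotation of the platform, some of it outdated: 29254 probe sets had 1 symbol, 439 several and 13231 none here, and 27680 symbols were updated through gene identifiers to RefSeq (UU_Cfam_GSD_1.0). Probe sets with a mean over the 6 arrays of at least 6.07, the median of the non-control probe sets, were tested (21462; 9145 genes by the brightest probe set). Groups were compared with limma 3.58.1 (lmFit, eBayes) in R 4.3.3, Benjamini-Hochberg adjusted, threshold 0.05; SEs are those of this fit. The fit was tested on simulated data. Figures used matplotlib 3.10.9.

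The members and lists were chosen with earlier results of these data known. The naming rule took all members, up to 6 passing genes per list and direction, the 4 p53 targets at each end of r with CDKN1A, CDKN2D and CDKN2B, and the 6 genes most like CDKN1A and MDM2. The number of arrays limits the precision. The p-values weigh a group difference against the spread of lines within the groups. None of the lines was arrayed more than once, so this spread mixes differences between lines with error of the arrays. Replicate numbers follow accession order.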

Additional observations from a re-analysis of the deposited data

How the results depend on the processing

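No paired analysis was possible because the labels give the lines no numbers that link the groups. As reported, 2580 probe sets, 1 member probe set, 1 p53 target, 6 regulators and 17 DREAM and E2F targets passed. With the GAPDH end ratio as a covariate the counts were 27, 0, 0, 0 and 0, and without both UWKOS6 and UWKOS8, with UWKOS2 assumed to vary like the tumorigenic lines, 9, 0, 0, 0 and 0. Leaving out 1 line at a time gave 52 (without UWKOS6) to 3169 (without UWKOS7) probe sets, 0 to 1 member probe sets, 0 to 2 p53 targets, 0 to 10 regulators and 0 to 17 DREAM and E2F targets. The member count was 3 with the upper-quartile filter and 2 with quantile normalization, centring on the 75th percentile or an intensity trend. The p53 target count was 2 with centring on the hybridization controls or with all of a gene's probe sets averaged. Differences that changed sign were MDM4 (-0.041 without UWKOS1), CDKN1B (0.026 without UWKOS1), CDKN1A (0.747 without UWKOS6 and UWKOS8) and SESN1 (0.563 without both, 0.096 without UWKOS7). Over the lines left out MDM4 ranged up to 0.64, CDKN1B down to -0.67 and SESN1 down to -0.95. Among p53 targets TP53I11 reversed on the hybridization controls (0.052), with the covariate (0.020) and without both lines (0.245). CYFIP2 reversed with the covariate (-0.061) and without both lines (-0.153). FDXR reversed with quantile normalization (-0.0054), on the 75th percentile (-0.023) and, of the lines left out, from -0.046 to 0.14. CDKN2D reversed on the hybridization controls (0.162), with the covariate (0.296), with the mean of its probe sets (0.108) and, of the lines left out, from -0.39 to 0.491. The cause of these changes was not tested. Offsets on the linear scale were planned but not run, since the values came as log2.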

Other observations

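Some genes of the same pathways were too dim to pass the filter and were named after their values were seen. SESN3, SKP2, SIRT1 and CDKN2B are the listed genes under the filter that passed the threshold in the fit without it. In that fit 1000 of 15115 genes passed. The other listed genes under the filter did not, among them TNFAIP8 (limma adjusted p = 0.125), FAS (0.237) and ATM (0.398). SESN3, a further sestrin, measured 5.20, 4.94 and 5.23 in UWKOS1, UWKOS3 and UWKOS7 and 6.60, 6.83 and 7.41 in UWKOS2, UWKOS6 and UWKOS8, so its groups did not overlap, unlike those of SESN1. Without the filter it passed as lower (limma adjusted p = 0.0183). SKP2, the ubiquitin ligase subunit that targets CDKN1B for degradation, measured 7.14, 6.94 and 5.93 in the tumorigenic lines and 4.99, 4.35 and 4.91 in the others, in the same order. Without the filter it passed as higher (limma adjusted p = 0.037). The deacetylase SIRT1, which acts on p53, passed as higher in that fit (limma adjusted p = 0.0244). CDKN2B, an INK4 inhibitor, measured 3.99, 4.16 and 4.25 in the tumorigenic and 5.20, 4.96 and 4.87 in the non-tumorigenic lines. It passed as lower in that fit (limma adjusted p = 0.0288). CDKN2B lay under 6.07 in every line, and SESN3, SKP2 and SIRT1 exceeded it only in lines of the group where they were higher. Values under 6.07 are not known to exceed background, so no size is given for these differences. The genes were named because they passed, and nothing further is read from their calls or directions.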
